A study of Rattus norvegicus with 6 samples.

Results

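Digestive enzymes of the exocrine pancreas were measured in fat taken from beside the pancreas of 6 Wistar rats, 1 array per rat. The genes are 31 products or regulators of the pancreatic acinar cell: trypsinogens, chymotrypsins, elastases, carboxypeptidases, lipases, amylase, a ribonuclease, granule proteins, secreted inhibitors and transcription factors. They were taken by symbol, from probe sets annotated to exactly 1 gene. Of the 31, 28 had such a probe set on the array (30 probe sets in all), out of 14217 genes so measured. The other 3, Try4, Spink3 and Rbpjl, had none under that symbol. RefSeq lists Try4 among the synonyms of Prss3 and of 1810009J06Rikl, and Spink3 among those of Spink1 and of Spink1l. Prss3 and Spink1 were measured within the set and Spink1l outside it, so which gene each missing symbol means is uncertain.

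The series compared 3 lean rats on standard chow (lean 14, 18 and 19) with 3 obese rats (obese 29, 32 and 42) given an energy-rich cafeteria diet over 30 days. All 6 were Wistar, an outbred strain, and their labels name no genotype or other agent. Age was not among the labels used. The labels call the sample visceral fat around the pancreas, a depot that lies against exocrine lobules. Each sample is whole tissue and each number is a different rat, so p-values measure only the spread between these rats, and precision is limited by the number of arrays. Obese 42 is the 1 array whose labels do not call it a re-analysis of an older sample.

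Acinar cells make the enzymes that digest protein, fat and starch, mostly as inactive precursors (zymogens), and store them in zymogen granules until a meal releases them into the duct. Trypsin, once activated in the gut, activates the other proteases, and the inhibitor encoded by Spink1 restrains trypsin within the gland. The transcription factor PTF1, built of Ptf1a, an E protein and Rbpjl, drives the enzyme genes, and Bhlha15 (Mist1) shapes the secretory cell. In the pancreas the enzyme messages are among the most abundant of all.

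On lean 14 most of these genes were far above every other array, and in the other 5 rats most lay at background. The array of lean 14 held the highest of the 6 values for 25 of 28 genes, against 15.8% of all genes tested. For 19 genes it exceeded the highest of the other 5 arrays by more than 1 on the log2 scale, against 0.148% of all genes, and for 17 by more than 2. Only 2 genes outside the set passed that mark of 1, the histocompatibility gene RT1-N2 (an excess of 2.16) and Nom1 (1.03). The median of the 28 genes was 8.36 on lean 14, and 4.37, 4.47, 4.55, 4.62 and 4.80 on lean 18, lean 19, obese 29, obese 32 and obese 42. Since lean 14 is 1 rat, its values are a description and carry no test. In bulk tissue, more acinar cells and more enzyme RNA per cell cannot be told apart.

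**Figure D1:**
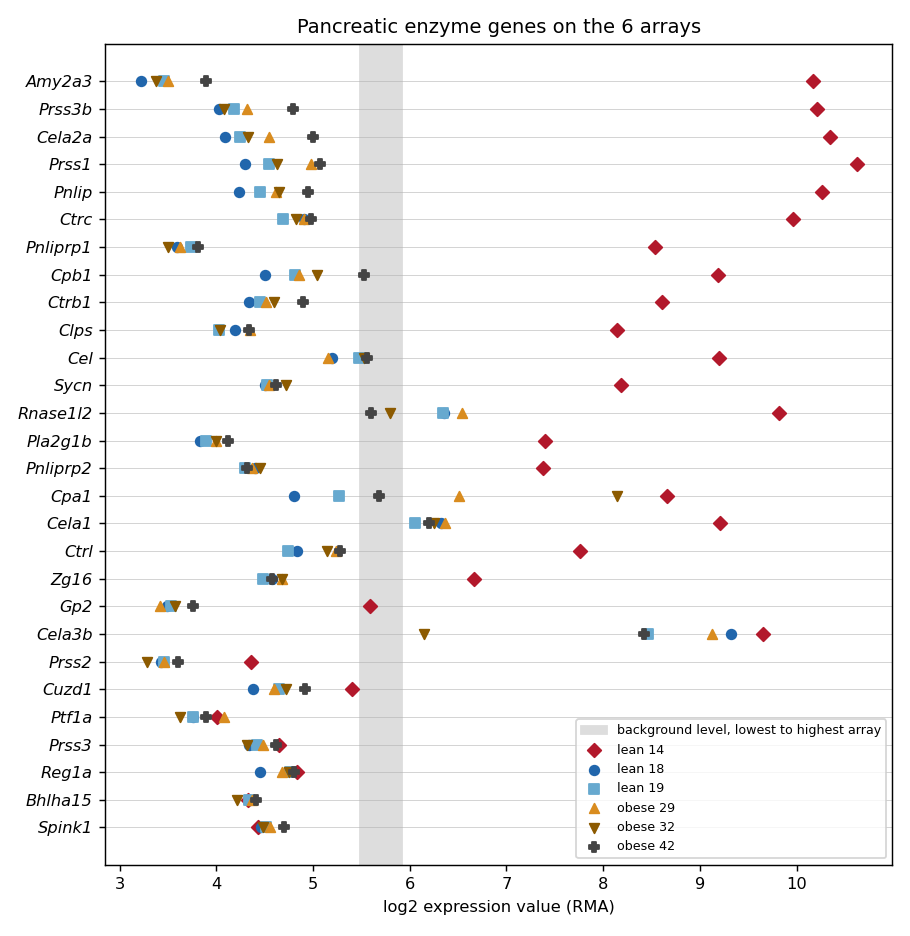
Expression values (log2, RMA) of the 28 pancreatic enzyme genes on the 6 arrays, ordered by the difference between lean 14 and the median of the other 5. The grey band spans the background levels of the 6 arrays, 5.49 to 5.92; lean 14 (red diamonds) stands apart for most genes, and the 5 genes at the foot of the plot have lean 14 at most 0.04 above the next array.

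The background level used throughout was, on each array, the 95th percentile of 81 probe sets for olfactory, vomeronasal and taste receptors and for eye, testis and brain genes. It lay between 5.49 and 5.92. Below it were 8 of the 28 genes on lean 14, against 34.9% of all genes, and 24 or 25 of the 28 on each of the other arrays. Of the 19 genes that stood alone on lean 14, 18 were above background there, the exception being Gp2. For 17 of the 19, every other array was at background, so that the fold on lean 14 is known only as a lower limit, and for Gp2, at background there too, no fold is given. The exceptions were Cela1, above background on all 5 other arrays, and Rnase1l2, above it on 4.

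Upstream sequences are shown for 6 genes, to set trypsinogen, amylase and lipase genes that stood alone on lean 14 (Prss1, Prss3b, Amy2a3, Pnlip and Cel) beside a trypsinogen that stayed at background (Prss2). They come from RefSeq (GRCr8), which held an entry for 23 of the 28 genes, 15 of them among the 19. Each line gives the 200 bases just before the gene's start, 5′ to 3′ on the gene's strand. Capitals mark the E-box CACCTG and the box TTTCCCA, the kind of pair that PTF1 is known to bind, and the TATA motif TATAAA, with both boxes also marked in reverse complement (CAGGTG and TGGGAAA). The windows are chr4:71331049-71331248 (+) for Prss1, chr4:70842193-70842392 (-) for Prss3b, chr2:204014413-204014612 (-) for Amy2a3, chr1:267784410-267784609 (+) for Pnlip, chr3:32289020-32289219 (-) for Cel and chr4:71244764-71244963 (+) for Prss2.
Prss1: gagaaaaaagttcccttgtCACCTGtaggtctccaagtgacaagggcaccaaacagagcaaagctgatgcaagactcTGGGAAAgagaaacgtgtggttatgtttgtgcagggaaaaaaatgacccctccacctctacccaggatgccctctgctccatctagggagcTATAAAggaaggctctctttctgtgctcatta
Prss3b: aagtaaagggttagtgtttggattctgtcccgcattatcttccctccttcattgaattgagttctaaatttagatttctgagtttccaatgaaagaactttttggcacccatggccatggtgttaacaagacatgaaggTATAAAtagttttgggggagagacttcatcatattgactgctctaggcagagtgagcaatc
Amy2a3: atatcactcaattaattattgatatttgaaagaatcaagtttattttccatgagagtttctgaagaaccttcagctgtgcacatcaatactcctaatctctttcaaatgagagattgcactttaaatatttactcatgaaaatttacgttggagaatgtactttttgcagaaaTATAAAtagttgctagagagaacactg
Pnlip: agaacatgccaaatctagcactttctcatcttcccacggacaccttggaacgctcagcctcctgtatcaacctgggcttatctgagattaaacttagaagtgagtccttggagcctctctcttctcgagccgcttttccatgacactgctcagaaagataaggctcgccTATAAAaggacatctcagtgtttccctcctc
Cel: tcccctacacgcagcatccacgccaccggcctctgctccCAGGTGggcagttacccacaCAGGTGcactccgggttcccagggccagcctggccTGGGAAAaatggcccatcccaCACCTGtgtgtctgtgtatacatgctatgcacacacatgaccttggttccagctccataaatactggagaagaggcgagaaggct
Prss2: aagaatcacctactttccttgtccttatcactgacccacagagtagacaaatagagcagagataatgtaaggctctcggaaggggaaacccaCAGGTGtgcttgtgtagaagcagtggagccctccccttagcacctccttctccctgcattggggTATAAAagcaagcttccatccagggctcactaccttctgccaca

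Over 250 bases upstream, searched on both strands, TATAAA or its reverse complement TTTATA was found in 9 of 15 promoters (60.0%) of the genes that stood alone on lean 14 and in 2 of the 8 others, against 12.9% of all 33469 promoters in the table. In Prss1, Amy2a3 and Pnlip it began 32, 27 and 31 bases before the start, in Prss2 44 and in Prss3b 61. CACCTG was found in 7 of 15 and 3 of 8, against 15.9% of all promoters. TTTCCCA was found in 3 of 15 and 3 of 8, against 7.10%. Both boxes together, at any distance from each other, were found in Prss1, Cel and Ctrb1 (20.0% of the 15). Among the 8 others they were found in Cela3b, against 1.05% of all promoters. In Prss1 the E-box began 181 bases and the second box 123 bases before the start. Prss2, at background on every array, also holds the TATA motif and an E-box. These matches describe the letters of a window and are not sites shown to be bound.

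Trypsinogens divided into a bright pair and a dim pair. Prss1, a major trypsinogen, read 10.62 on lean 14, 4.30 on lean 18, 4.55 on lean 19, 4.98 on obese 29, 4.63 on obese 32 and 5.07 on obese 42. Prss3b, another trypsinogen, read 10.21 on lean 14, then 4.03 and 4.18 on the other lean arrays and 4.32, 4.08 and 4.79 on the obese arrays. Both stood alone on lean 14, at least 31.0-fold and 23.4-fold above the other arrays taken at their background level. Prss2 read 4.36 on lean 14, 3.43 and 3.46 on lean 18 and 19, and 3.46, 3.28 and 3.60 on obese 29, 32 and 42. Its lean 14 value was the highest of the 6, 0.76 above the next, but below background. Prss3 read 4.65 on lean 14, 4.34 and 4.42 on the other lean arrays, and 4.49, 4.32 and 4.61 on the obese arrays, with no gap between lean 14 and the rest. Prss3b and Prss3 are neighbours on rat chromosome 4, and trypsinogens are close in sequence, so which copy a probe set reads is uncertain.

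All 3 chymotrypsins stood alone on lean 14. Ctrc (chymotrypsin C, which regulates trypsinogen activation) read 9.97 there, 4.90 and 4.69 on lean 18 and 19, and 4.91, 4.82 and 4.98 on obese 29, 32 and 42. Ctrb1 (chymotrypsinogen B) read 8.61 on lean 14, 4.34 and 4.45 on the other lean arrays, and 4.51, 4.60 and 4.89 on the obese arrays. Ctrl, a chymotrypsin-like protease, read 7.76 on lean 14 against 4.75 to 5.28 elsewhere, the smallest separation of the 3. The lower limits of their folds were 19.7, 7.70 and 4.27, in that order.

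The elastases, which cut elastin and other proteins, did not share 1 pattern. Cela2a read 10.35 on lean 14, 4.09 and 4.24 on lean 18 and 19, and 4.55, 4.33 and 5.0 on obese 29, 32 and 42, a separation of at least 25.6-fold. Cela1 read 9.21 on lean 14 and 6.06 to 6.37 on the other 5, a difference of 2.96 from their median, over a level that was above background everywhere. Cela3b was bright on every array but 1, at 9.65 on lean 14, 9.33 and 8.46 on lean 18 and 19, and 9.13, 6.15 and 8.42 on obese 29, 32 and 42. Its lean 14 value was only 0.32 above that of lean 18, and obese 32 stood apart on the low side, a range of 3.18 over the other 5 arrays. Its probe set was thus high in rats in which Prss1, Pnlip and Amy2a3 were at background.

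Carboxypeptidases trim amino acids from the ends of peptides. Cpb1 followed the common pattern, at 9.18 on lean 14, 4.51 and 4.82 on the other lean arrays, and 4.85, 5.04 and 5.53 on obese 29, 32 and 42. Cpa1 did not: it read 8.66 on lean 14, 4.80 and 5.27 on lean 18 and 19, and 6.51, 8.14 and 5.68 on obese 29, 32 and 42. The obese 32 value lay 0.52 below that of lean 14, and Cpa1 was above background on 3 of the other 5 arrays. On obese 32, Prss1 (4.63), Pnlip (4.65) and Cpb1 (5.04) were all at background.

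All 6 lipid-digesting genes stood alone on lean 14. Pnlip, pancreatic triglyceride lipase, read 10.27 there, 4.24 and 4.45 on lean 18 and 19, and 4.62, 4.65 and 4.95 on obese 29, 32 and 42. Pnliprp1, a lipase relative with little known activity on triglycerides, read 8.54 on lean 14, 3.60 and 3.73 on the other lean arrays, and 3.63, 3.50 and 3.81 on the obese arrays. Both were at background in the other 5 rats, and together with Pnliprp2 they are consecutive protein-coding genes on rat chromosome 1. Pnliprp2, which acts on phospholipids and galactolipids, reached 7.37 on lean 14 against 4.30 to 4.46. Clps, the colipase that anchors the lipase to fat droplets, read 8.14 on lean 14, 4.19 and 4.03 on lean 18 and 19, and 4.35, 4.04 and 4.34 on obese 29, 32 and 42. Cel, the bile salt-activated lipase, reached 9.20 against 5.15 to 5.56, and the phospholipase gene Pla2g1b reached 7.40 against 3.83 to 4.12. The 3 neighbouring lipase genes were thus high on the same array, by 5.65, 4.91 and 3.0 over the median of the other 5.

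Amylase digests starch, and its gene Amy2a3 stood alone on lean 14. Amy2a3 read 10.17 on lean 14, 3.22 and 3.46 on lean 18 and 19, and 3.50, 3.37 and 3.89 on obese 29, 32 and 42, at least 22.6-fold above the other arrays at their background level. A second probe set, annotated to Amy2a3 and the salivary amylase gene Amy1 together and so outside the set, read 12.21 on lean 14, 3.57 and 4.18 on the other lean arrays, and 4.18, 4.11 and 5.99 on the obese arrays. The probe set annotated to Amy1 alone lay between 2.98 and 3.21 on all 6 arrays. Rnase1l2, a pancreatic-type ribonuclease, read 9.82 on lean 14 and between 5.60 and 6.54 elsewhere. Its lowest values were those of obese 42 (5.60) and obese 32 (5.80).

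Of the 4 granule proteins, 3 stood alone on lean 14. Sycn (syncollin, a granule membrane protein) read 8.18 there, 4.50 and 4.53 on lean 18 and 19, and 4.55, 4.72 and 4.61 on obese 29, 32 and 42. Zg16, a granule lectin, reached 6.66 against 4.49 to 4.68. Gp2, the main glycoprotein of the granule membrane, read 5.59 on lean 14, 3.49 and 3.53 on the other lean arrays, and 3.42, 3.57 and 3.76 on the obese arrays. Its lean 14 value was 1.83 above the next and still below that array's background of 5.76. Cuzd1, another granule membrane protein, read 5.41 on lean 14, 4.38 and 4.64 on lean 18 and 19, and 4.59, 4.72 and 4.91 on obese 29, 32 and 42, also below background.

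Within the set, the transcription factors Ptf1a and Bhlha15 and the secreted proteins Reg1a and Spink1 stayed at background on all 6 arrays. Ptf1a read 4.0 on lean 14, 3.76 and 3.76 on lean 18 and 19, and 4.08, 3.62 and 3.89 on obese 29, 32 and 42, with its highest value on obese 29. Bhlha15 read 4.33 on lean 14, 4.35 and 4.34 on the other lean arrays, and 4.37, 4.22 and 4.41 on the obese arrays, all within the same narrow span. Reg1a, a secreted lectin-like protein of the acinar cell, read 4.84 on lean 14, 4.46 and 4.76 on lean 18 and 19, and 4.68, 4.75 and 4.80 on obese 29, 32 and 42. The Spink1 probe set with the highest mean read 4.43 on lean 14, 4.46 and 4.52 on the other lean arrays, and 4.55, 4.49 and 4.70 on the obese arrays, lowest on lean 14. Its other 2 probe sets were highest on lean 14, at 5.09 against 3.28 to 3.70 and at 4.94 against 3.68 to 4.07. All 3 were below background, and Spink1 has close relatives in the rat, so what each reads is uncertain. The full group at background on all arrays was Gp2, Cuzd1, Prss2, Prss3, Reg1a, Spink1, Ptf1a and Bhlha15. A probe set at background gives only an upper limit, and does not show that a transcript was missing.

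By level on lean 14, the order ran Prss1, Cela2a, Pnlip, Prss3b, Amy2a3, Ctrc, Rnase1l2, Cela3b, Cela1, Cel, Cpb1, Cpa1, Ctrb1, Pnliprp1, Sycn, Clps, Ctrl, Pla2g1b, Pnliprp2 and Zg16, with the 8 genes at background below them and without an order. Prss1 lay at the 97.7th percentile of all probe sets on that array and Ctrc, the sixth, at the 95.8th. The first 5 spanned only 10.17 to 10.62. Probe sets differ in how brightly they report a transcript, so this is an order of brightness, not of transcript amount. Measured differences from the median of the other 5 arrays were 6.70 for Amy2a3, 6.04 for Prss3b, 6.02 for Cela2a, 5.99 for Prss1, 5.65 for Pnlip, 5.06 for Ctrc, 4.91 for Pnliprp1, 4.33 for Cpb1, 4.10 for Ctrb1 and 3.95 for Clps. All of these were taken against values at background, which have no order, so the differences set no firm order either. With the other arrays raised to their background level, the lower limits were 31.0-fold for Prss1, 25.6 for Cela2a, 24.2 for Pnlip, 23.4 for Prss3b and 22.6 for Amy2a3. For genes at background on all the other arrays, that raised level is the same. The order of these limits therefore repeats the order of brightness on lean 14 and is no separate measure. The same 5 genes had the highest levels on lean 14 and the largest differences from the median of the other 5 arrays. Over the 19 genes the median difference was 3.95, against -0.02 over all genes.

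**Figure D2:**
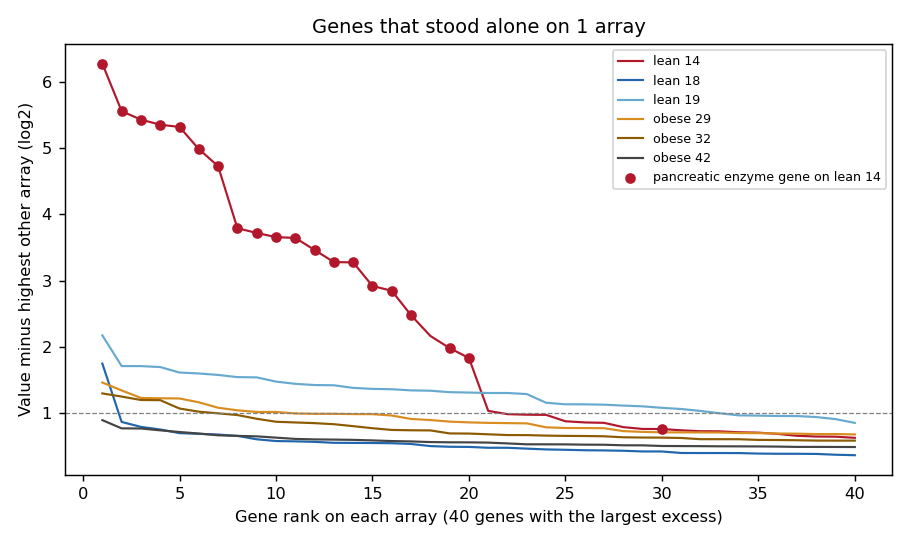
Excess (value on 1 array minus the highest of the other 5, log2) of the 40 genes with the largest excess on each array, in order of rank. Filled points on the lean 14 line are pancreatic enzyme genes; they fill 19 of its first 20 places with RT1-N2 as the exception, and the other arrays' largest excesses lie between 0.89 and 2.17.

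The pancreatic enzyme genes stood alone on no other array, although other genes did. An excess above 1 was found for 21 genes on lean 14, 1 on lean 18, 32 on lean 19, 10 on obese 29, 6 on obese 32 and 0 on obese 42, and no pancreatic enzyme gene was among those of the latter 5 arrays. The genes of lean 19 included smooth muscle genes such as Cnn1 (1.61), Acta2 (1.48) and Myh11 (1.44), and those of obese 29 cell division genes such as Ect2 (1.22) and Top2a (1.08), all named after their values were seen. An excess above 2 was found for 18 genes on lean 14, 1 on lean 19 and none on the others. The plot of excess by rank shows the lean 14 line falling from 6.27 at its first gene to 1.03 at its 21st.

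Other acinar genes outside the set were mostly dim. Of 30 measured, 18 were at background on all arrays, 8 were highest on lean 14 and 0 exceeded the other arrays by more than 1. The nearest was Tff2, a trefoil peptide, at 5.55 on lean 14 against 4.32 to 4.58, followed by Erp27, an endoplasmic reticulum protein abundant in pancreas, at 5.28 against 4.33 to 4.68, and the pancreatic disulfide isomerase Pdia2, at 4.36 against 3.65 to 3.90. All 3 were below background on lean 14. Next came the transcription factor Gata6, at 8.68 on lean 14 against 7.49 to 8.45, above background on all 6 arrays. The general secretory machinery (translocon, signal peptidase, chaperones), which every secreting cell uses, had 17 of 40 genes highest on lean 14, against 15.8% of all genes, and 0 past 1, with a mean of 9.63 there and 9.45 to 9.64 elsewhere.

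**Figure D3:**
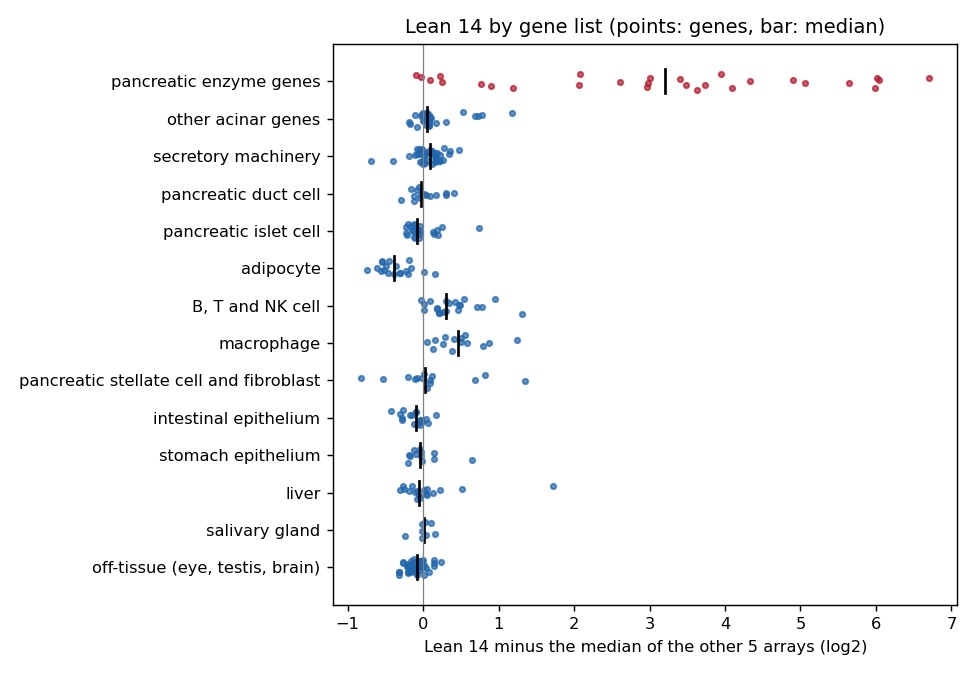
Lean 14 minus the median of the other 5 arrays (log2) for each gene (points) of the pancreatic enzyme set and of 13 other gene lists, with the list median as a bar. The enzyme genes reach from -0.09 to 6.70, and single genes of the other lists from -0.82 (Col1a1) to 1.72 (Alb). The medians of the other lists lie between -0.39 (adipocyte) and 0.46 (macrophage).

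Markers of other cells in and around the pancreas did not stand out on lean 14 in the same way. Of 25 islet genes, 22 were at background on all arrays and 3 were highest on lean 14, with a list mean of 4.64 there and 4.60 to 4.75 elsewhere. Those 3 were Iapp, Isl1 and Neurod1, with an excess of 0.13, 0.10 and 0.03, and only Isl1 was above background. The insulin genes Ins1 (5.30 on lean 14 against 5.48 to 5.85) and Ins2 (4.21 against 4.24 to 4.86) were lowest on that array, and the glucagon gene Gcg read 3.56 against 3.30 to 3.80. The insulin and glucagon genes were below background on lean 14, where an order between arrays says little. Of 15 duct genes, 6 were at background on all arrays and 3 were highest on lean 14, with a mean of 6.36 against 6.26 to 6.51, and the duct channel gene Cftr read 4.12 against 4.03 to 4.34. Genes of intestine (16 of 18), stomach (11 of 12), liver (15 of 18) and salivary gland (8 of 8) were at background on all arrays, with 1, 0, 0 and 1 highest on lean 14. The 14 genes of pancreatic stellate cells and fibroblasts averaged 9.75 on lean 14 against 9.52 to 9.94.

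The tissue label holds on every array for the adipocyte markers, with Adipoq (adiponectin) at 12.42 on lean 14 and 12.54 to 12.83 elsewhere, and the lipid droplet gene Plin1 at 11.32 against 11.63 to 12.17. Other measures also differed on lean 14, though not always on that array alone. Of 19 adipocyte genes, 13 were lowest there and 0 highest, with a mean of 11.14 against 11.33 to 11.72. Lean 18 and 19 (11.33 and 11.34) also lay below the obese arrays (11.53 to 11.72). Of 14 macrophage genes, 8 were highest there, with a mean of 9.98 against 8.56 to 9.89. Of 21 B, T and NK cell genes, 8 were highest there, with a mean of 6.07 against 5.19 to 6.12, the highest mean being that of lean 18. The 18 control probe sets for bacterial and phage transcripts spiked in at hybridisation were lower on lean 14 than the median of the other 5 by 0.60 to 1.31, with a median deviation of -1.01, whereas on each other array the median deviation lay between -0.05 and 0.08. The gap between 3′ and 5′ control probe sets, a sign of RNA integrity, was smallest on lean 14 (0.79 against 0.92 to 1.28). The part of these measures in the enzyme values was not tested.

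Among the other 5 arrays, obese 42 most often carried the highest enzyme value. It was the highest of the 5 for 19 of 28 genes, against 25.0% of all genes, and for 13 of the 19 that stood alone on lean 14. The values concerned were low: over the 19 genes the mean was 4.47 on lean 18, 4.52 on lean 19, 4.66 on obese 29, 4.59 on obese 32 and 4.80 on obese 42. Obese 42 exceeded the other 4 by 0.48 for Cpb1, 0.47 for Prss3b, 0.45 for Cela2a, 0.39 for Amy2a3, 0.30 for Pnlip and 0.29 for Ctrb1. The probe set shared by Amy2a3 and Amy1 read 5.99 on obese 42 against 3.57 to 4.18 on the other 4. That value was above the background of obese 42 (5.60), and those of the other 4 were below theirs. The lowest of the 5 was lean 18 for 13 of the 28 genes, lean 19 for 6, obese 32 for 6, obese 29 for 2 and obese 42 for 1, against 20.1%, 18.2%, 21.5%, 17.6% and 22.5% of all genes. The range over the 5 arrays had a median of 0.41 for the 19 genes and of 0.37 for all genes. Most of these values were below background, where an order between arrays says little about a transcript, and obese 42 also had the widest gap between 3′ and 5′ controls (1.28) and is the array not marked as a re-analysis. Their part in its higher values was not tested.

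**Figure D4:**
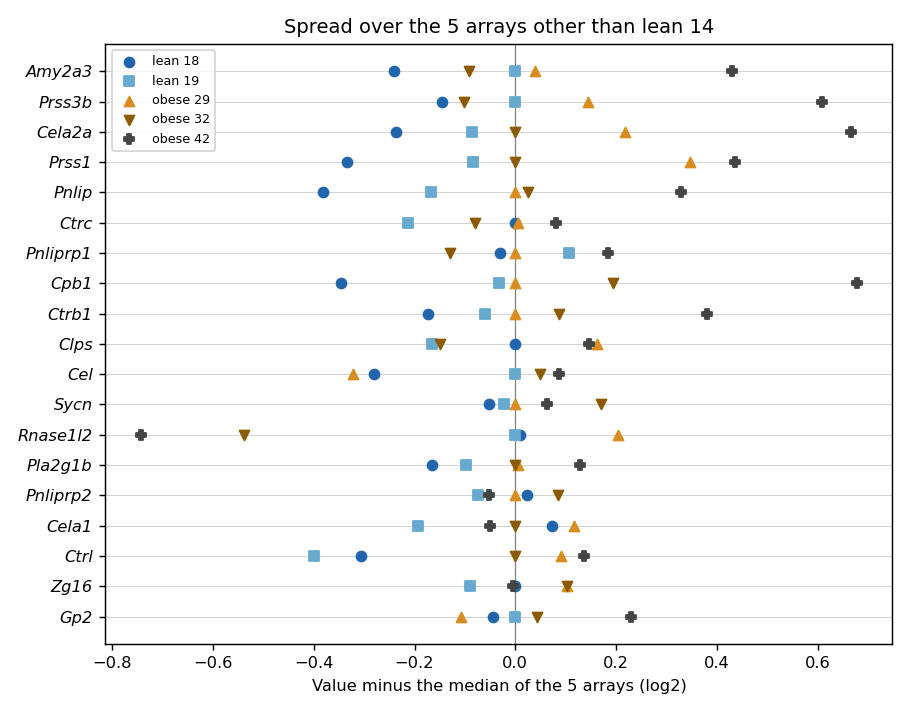
Deviation of each array from the median of lean 18, lean 19, obese 29, obese 32 and obese 42 (log2) for the 19 genes that stood alone on lean 14. Obese 42 (dark crosses) lies farthest right for 13 of the 19, by up to 0.48 beyond the next, while Rnase1l2 runs the other way; Cpa1, whose range over these 5 arrays is wider, is not among the 19.

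The design's own comparison, obese against lean, asks whether the cafeteria diet changed these genes, and no pancreatic enzyme gene passed it. With all 6 arrays, 0 of 28 were called by limma at an adjusted p under 0.05, against 0.00703% of all genes (1 gene), and 0 of 28 had an unadjusted p under 0.05, against 13.4%. In 0 of 28 were the groups without overlap, against 12.2% of all genes higher and 8.18% lower in obese rats. The difference, obese minus lean, was below 0 for 24 genes and above 0 for 4, with a median of -1.02, against 0.016 over all genes. The spread within the lean group was large, with a median standard error (SE) of 0.88 against 0.11 for all genes.

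Prss1 averaged 6.49 ± 3.58 (SD, n = 3) in lean and 4.89 ± 0.23 (SD, n = 3) in obese rats, a difference of -1.60 (SE 1.54, limma adjusted p = 0.674). Amy2a3 averaged 5.62 ± 3.94 (SD, n = 3) in lean and 3.59 ± 0.27 (SD, n = 3) in obese rats, a difference of -2.03 (SE 1.69, limma adjusted p = 0.626). In both, lean 14 lay above all 5 other rats, and lean 18 and 19 lay within or below the range of the obese rats. The difference of Cela3b, -1.25 (SE 0.72, limma adjusted p = 0.481, the smallest of the set), rested instead on obese 32, without which it was -0.37. Without obese 29 it was -1.86, with an unadjusted p under 0.05 (limma adjusted p = 0.321), the 1 gene of 28 under that mark in that fit, against 13.2% of all genes. Rnase1l2 differed by -1.52 (SE 0.89, limma adjusted p = 0.486), and Cpa1 was on the other side of 0 at 0.54 (SE 1.05, limma adjusted p = 0.845).

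Without lean 14 the sign of most differences turned. The difference was then above 0 for 24 genes and below 0 for 4, with a median of 0.11, against 0.011 over all genes, and a median SE of 0.13. Again 0 of 28 were called, the smallest adjusted p being 0.433, and over all genes 0 were called too. An unadjusted p under 0.05 was found for 4 of 28 genes, all higher in obese rats, against 8.03% of all genes in either direction. The 4 were Ctrl at 0.43 (SE 0.10, limma adjusted p = 0.433), Prss1 at 0.47 (SE 0.16, limma adjusted p = 0.594), Pnlip at 0.39 (SE 0.14, limma adjusted p = 0.595) and Cpa1 at 1.74 (SE 0.66, limma adjusted p = 0.604). For 9 of 28 genes (Cela2a, Cpa1, Cpb1, Ctrb1, Ctrl, Pla2g1b, Pnlip, Prss1 and Sycn) all 3 obese values lay above both remaining lean values, against 15.8% of all genes, and for 0 of 28 below, against 11.5%. Apart from Cpa1, these differences lie between values at background. With obese 42 left out as well, 0 of 28 were called and the median was 0.093. An unadjusted p under 0.05 was then found for 2 of 28, against 11.9% of all genes, and 10 of 28 lay without overlap and higher in obese rats, against 24.9%.

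**Figure D5:**
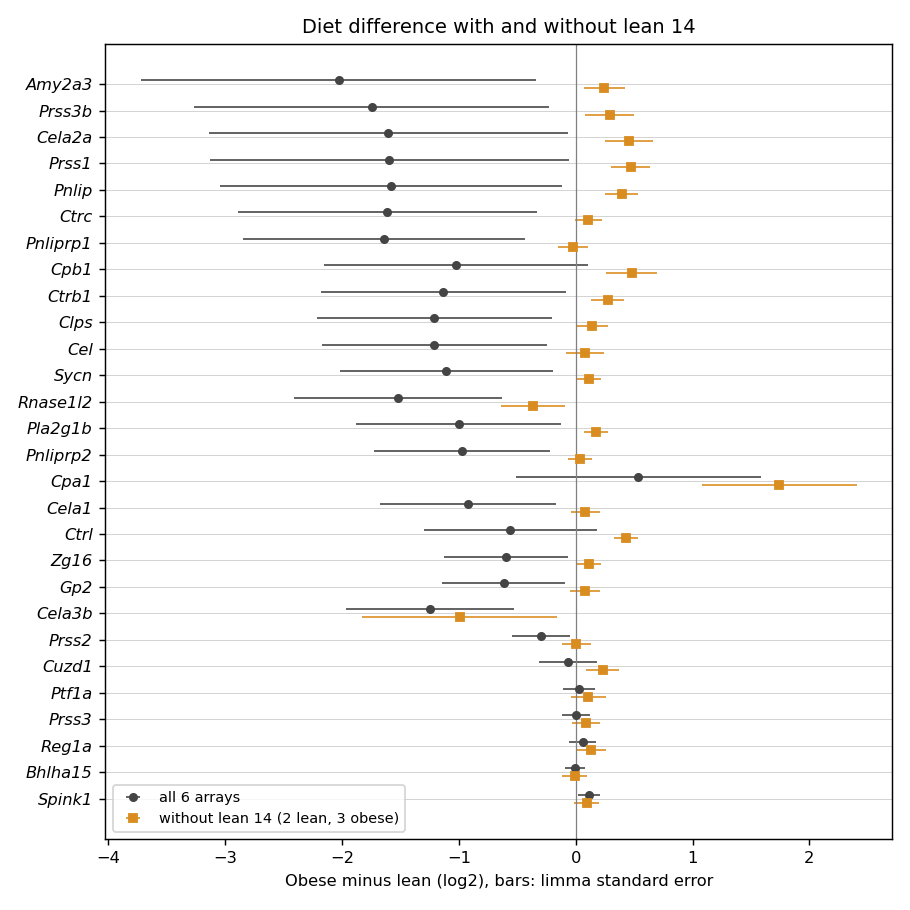
Obese minus lean difference (log2) of the 28 genes with all 6 arrays (black) and without lean 14 (orange); bars are limma's standard errors. With all arrays most differences lie below 0 with wide bars, with a median of -1.02; without lean 14 the bars shrink and the median is 0.11, and Cpa1 and Cela3b keep wide bars.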

How the data were processed

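RNA of 6 fat samples was labelled and hybridised to Affymetrix rat genome expression arrays. The authors deposited log2 values for probe sets, computed with RMA and affy per the submitters' processing notes (versions, chip definition: not given in the sources used here). Of 31099 probe sets, 57 controls were left out, and 20826 had 1 symbol, 436 several and 9780 none. A gene's value is that of its brightest probe set (by mean over the 6 arrays), and dim ones were kept. Array medians lay between 5.63 and 5.68.

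Obese and lean rats were tested by lmFit and eBayes (limma 3.58.1, R 4.3.3; two-sided, no covariate), with Benjamini-Hochberg adjustment over all 14217 genes, after the script was tested on simulated data. Tables and plots used Python 3.11.15, pandas 2.3.3 and matplotlib 3.10.9. A lower limit of a fold sets lean 14 against the mean of the others, each raised to its background level where below it. The genes and lists were chosen with earlier results of these data known. Some markers, among them Ins1, Ins2, Gcg, Cftr, Plin1 and Alb, were named outside the rule that follows. The rule named every measured gene of the set, in full the 10 with the largest difference, the trypsinogens, the transcription factors and those at background, plus 15 other genes with the largest excess on lean 14 (uncharacterised LOC, RGD and Rik symbols passed over) and up to 4 of each list. Alternatives were median centring, quantile normalization, a filter on dim genes, the mean of or every probe set, an intensity trend with robust prior, array weights, other thresholds and background levels, and each array left out; leaving out lean 14 and obese 42 together was added after seeing the data.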

Additional observations from a re-analysis of the deposited data

How the results depend on the processing

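No pancreatic enzyme gene was called by limma under any alternative run, with 0 of 28 under each normalization, probe set, prior, weight and threshold choice and with each array left out (unadjusted p under 0.05 for 0 with all arrays, 4 without lean 14, 1 without obese 29, 2 without lean 14 and obese 42, and 0 without any other single array). The filter on dim genes left 1 of the 28, Cela3b. The median difference, -1.02, ranged from -1.58 without lean 19 to 0.11 without lean 14 (0.093 without lean 14 and obese 42). With arrays left out, the difference ranged from -2.69 to 0.47 for Prss1 (0.38 without both), -3.23 to 0.25 for Amy2a3 (0.093 without both), -2.62 to 0.39 for Pnlip (0.29 without both), -1.08 to 0.43 for Ctrl (0.40 without both) and -0.19 to 1.74 for Cpa1 (2.29 without both, -0.19 without lean 18, -0.15 without obese 32). Of 28 genes, 20 changed sign without lean 14, 18 without both, and 0 to 4 without any other single array, against 2 under median centring and 1 under quantile normalization. The number that stood alone on lean 14, 19, was the same under both normalizations and with the mean of probe sets, 17 at a mark of 2, and 21 against the median of the other arrays. The number at background on lean 14, 8, was 4 when the lower quartile of each array was the level. No paired analysis was possible because lean and obese rats share no replicate numbers. The weak point is that the contrast rests on 1 rat, and that signal at background limits what the other 5 can show.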

Other observations

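Genes outside the set with the largest excess on lean 14, uncharacterised loci passed over, were of other kinds apart from the acinar gene Tff2. After RT1-N2 (7.15 on lean 14 against 4.52 to 4.99) and Nom1 (7.62 against 6.27 to 6.59) came the monocyte chemokine receptor Ccr2 (an excess of 0.98), Tff2 (0.98) and the myeloid integrin Itgam (0.97). C7h12orf75 (0.88), Trpc6 (0.86), Gna14 (0.85), Gjb2 (0.76), the mast cell receptor subunit Fcer1a (0.74), Wipi2 (0.73), the oestrogen receptor Esr1 (0.73), Vsig8 (0.71), Adm (0.69) and Cd200r1 (0.66) followed. Among the cell type lists other than the acinar genes, the T cell genes Cd3g (0.64) and Cd3e (0.60) and the retinoid enzyme gene Lrat (0.56) had the largest excess after Itgam.

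Probe sets that name no single gene also stood apart on lean 14. One without a symbol read 9.79 there and between 4.78 and 5.16 on the other 5 arrays, an excess of 4.63, within the range of the enzyme genes. Another 2 without a symbol had an excess of 1.36 and 1.29. Spink1l, a relative of Spink1 by name that also has the synonym Spink3, read 4.25 on lean 14 against 3.45 to 3.62. Prss3bl1, named after Prss3b, read 4.71 against 4.42 to 4.68, and both were below background. Albumin (Alb) varied widely and, unlike most of the enzyme genes, was not highest on lean 14. It read 12.38 on lean 14, 10.67 and 11.27 on lean 18 and 19, and 10.42, 12.61 and 10.11 on obese 29, 32 and 42. Its high arrays were lean 14 and obese 32, which are also those with the highest Cpa1 values.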
